A study of Drosophila melanogaster with 2 samples.

Results

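Castor (cas) binding was mapped by chromatin immunoprecipitation and sequencing in Drosophila melanogaster, and 2 combined peak lists were deposited. The peaks described here are those of the pooled list that are missing from the conservative list. A peak of the pooled list was taken when no conservative peak had the same chromosome, start, end and summit offset. Of the 2237 pooled peaks, 548 met this rule on the chromosome arms and another 4 lay off the arms and were only counted. The remaining 1684 pooled peaks on the arms were in both lists and serve as the comparison. Another 195 peaks on the arms were in the conservative list alone. The members were thus selected on measured values, the irreproducible discovery rate (IDR) scores of the authors, and every property that follows from those scores is given as a description with no test. The pooled list itself holds 1.73% of the 129456 ranked entries from which it was thresholded.

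The samples were 2 biological replicates of whole embryos collected from 0 to 24 hours of development. All embryos came from the strain cas-GFP, which carries an enhanced green fluorescent protein fusion of cas, and the fusion was pulled down with an antibody against green fluorescent protein. There was 1 group, so no treatment, genotype or stage was compared. Control libraries (input, mock or embryos lacking the fusion) were not used here. A peak may come from any tissue and any stage of the collection. The lists hold no read totals, and the depth behind each peak is unknown.

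Castor is a zinc-finger transcription factor. Neural stem cells of the embryo, the neuroblasts, express it late in an ordered succession of factors that sets the order in which neurons are born. In a chromatin immunoprecipitation the tagged factor and the DNA near it are recovered together, and a peak marks where reads pile up. IDR compares 2 peak sets and asks how reproducibly a peak ranks in both; here it is given as -log10, so that high values mean high reproducibility, and peaks of 2 or more could enter a thresholded list. The 2 peak sets behind the conservative list could be matched by position to the replicates' own lists, the first set to replicate 1 (59707 of 105251 entries) and the second to replicate 2 (66152 entries), with 0 matches the other way round. Of the 2 sets behind the pooled list, 0 of 129456 entries had the position of an entry of either replicate. No source used here says what those sets were made from.

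The DNA under 7 chosen summits gives examples of the class and does not span its range. All but the summit at cas were stronger than most members. The first 3 sequences are the strongest members, which have an entry in replicate 1 alone: the promoter of CG7668 (chr3L:20002582-20002682), the promoter of CG5096 in the body of gny (chr2L:10382005-10382105) and an intron of subdued (chr3R:19641855-19641955), a gene for a membrane channel of the anoctamin family. CG3337 (chr3R:21223554-21223654) is a promoter whose signal came mainly from replicate 2 and which carries the element TATCGATA. RpL8 (chr3L:2587340-2587440) is a ribosomal protein promoter with none of the capitalised words. Mpcp2 (chr3L:14538190-14538290), a mitochondrial phosphate carrier gene chosen after its values were seen, has the strongest coding exon summit of the class. The summit at cas itself (chr3R:5716383-5716483) is shown last. Each run is the plus strand of dm6 from the RefSeq genome, the summit base with 50 bases on each side. Capitals mark the words ATTTTA and TATCGA, the repeat GCAGCAGC, and the reverse complement of each.
CG7668: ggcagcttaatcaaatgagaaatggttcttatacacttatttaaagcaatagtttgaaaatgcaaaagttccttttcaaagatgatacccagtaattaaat
CG5096: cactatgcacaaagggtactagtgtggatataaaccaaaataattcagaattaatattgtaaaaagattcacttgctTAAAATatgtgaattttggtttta
subdued: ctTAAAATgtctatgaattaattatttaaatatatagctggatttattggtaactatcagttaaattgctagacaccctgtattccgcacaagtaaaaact
CG3337: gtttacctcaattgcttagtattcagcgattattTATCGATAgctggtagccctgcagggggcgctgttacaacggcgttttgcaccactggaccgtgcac
RpL8: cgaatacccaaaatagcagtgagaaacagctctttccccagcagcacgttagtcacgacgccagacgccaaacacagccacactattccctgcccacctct
Mpcp2: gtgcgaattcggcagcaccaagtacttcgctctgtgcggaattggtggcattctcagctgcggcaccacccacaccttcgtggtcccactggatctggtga
cas: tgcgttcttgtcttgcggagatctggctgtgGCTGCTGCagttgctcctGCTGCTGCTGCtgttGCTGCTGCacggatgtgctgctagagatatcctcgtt

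These windows differ most in base composition. G and C made up 28.7% of the CG7668 window, 26.7% of that of CG5096 and 27.7% of that of subdued. They made up 50.5% at CG3337, 53.5% at RpL8, 58.4% at Mpcp2 and 56.4% at cas. The cas window holds 4 matches to GCAGCAGC, some of them overlapping, in a run of CTG repeats. Over all members the G and C content had a median of 40.6%, with quartiles of 32.7% and 50.5% and a range of 14.9% to 70.3%.

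Most members were among the weaker peaks of the pooled list. The signal value, the authors' own measure of peak height, had a median of 51 and quartiles of 46.3 and 56.7, against a median of 82.8 and quartiles of 65.0 and 119 for peaks in both lists. The strongest member reached 138 and the strongest peak in both lists 1218. Peaks in the conservative list alone had a median of 49.7. Members made up 170 of the 191 pooled peaks with signal from 40 to 50 (89.0%), 214 of the 422 from 50 to 60 (50.7%) and 64 of the 370 from 60 to 70 (17.3%). Above 100 they made up 3 of 324 peaks up to 150 and 0 of the 264 stronger ones, where a count of 0 is a count of listed peaks and sets no limit on binding. Both classes were present in every signal bin up to 150, so the height of a peak alone did not decide its list.

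**Figure D1:**
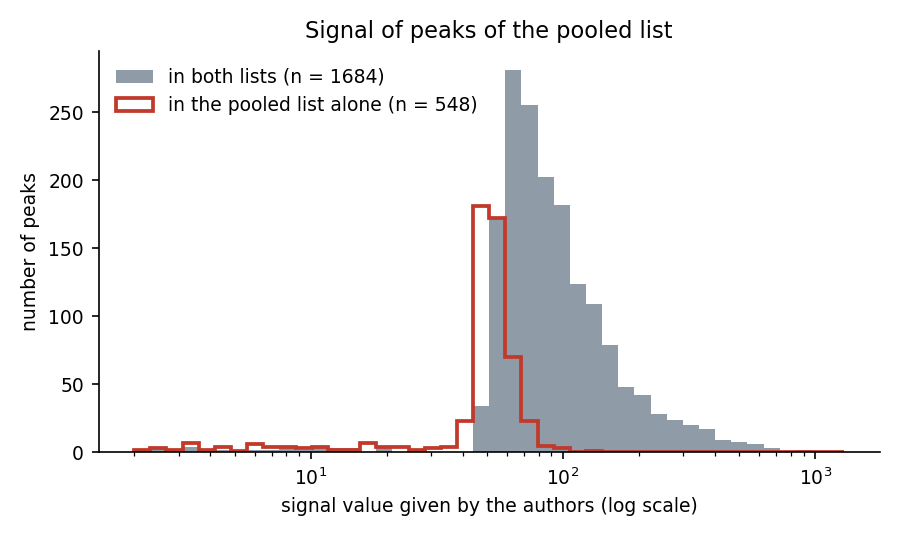
Number of pooled peaks by signal (log axis) for the 548 members (red line) and the 1684 peaks in both lists (grey bars). Most members lie between 40 and 70, with a tail under 10, while the peaks in both lists extend to 1218.

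The IDR values place most members close to the threshold in the pooled ranking and spread them widely in the conservative one. In the pooled ranking their median -log10 IDR was 2.26, and 421 of 548 were under 2.5, against a median of 3.29 for peaks in both lists. In the conservative ranking 521 members had an entry at the same place, with a median of 1.38 and a maximum of 2.00. Of these, 225 had 1.5 or more and 112 had under 0.5. The other 27 members had no such entry: 21 overlapped a ranked entry of replicate 1 alone and 6 of replicate 2 alone. The weakest members by pooled IDR lay in an intron of Pde9, a phosphodiesterase gene (2.00116), in a coding exon of dyl with the start of Fdx2 nearest (2.00181), and in an intron of Sulf1, a sulfatase gene (2.00246). The ranked entries just below the threshold, near lectin-46Cb (1.99985), CG8060 (1.9992) and Dad (1.99856), differ from them in the third decimal place or beyond. On the conservative side the member that came nearest to the threshold was at the promoter of larp, with 1.99979 and a signal of 58.6.

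The members differed from the peaks in both lists in how evenly the replicates contributed. Signals of both replicates could be read for 521 members from the pair of peaks behind the conservative entry. Replicate 1 had a median of 25 and a range of 4.38 to 66.3 at the members, and replicate 2 a median of 21.2 and a range of 2.35 to 100.1. In each member the lower of the 2 replicates was at 24.0 or below, while among peaks in both lists it was at 20.8 or above. Fold differences were taken as the log2 ratio of replicate 1 to replicate 2. Its SD over members was 1.20, against 0.52 over peaks in both lists. Replicates were at least 2-fold apart at 224 members (43.0%, Wilson 95% interval 38.8 to 47.3) and at 88 of 1684 peaks in both lists (5.23%). Replicate 1 was the higher at 125 of these members and replicate 2 at 99, so neither replicate supplied all of them. Since a peak that ranks far apart in the replicates gets a low conservative IDR, this unevenness follows from the rule.

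The same members were even between the 2 sets behind the pooled list. Members had passed the IDR that compares these sets, so this evenness also follows from the rule. Between these sets the SD of the log2 ratio was 0.37 over members and 0.44 over peaks in both lists. The sets were at least 2-fold apart at 3 of 548 members and at 37 of 1684 peaks in both lists. Peaks in the conservative list alone showed the mirror image: 114 of 194 were at least 2-fold apart between these sets and 9 of 195 between the replicates. In the signal band from 46.3 to 56.7, which holds the 274 middle members and 144 peaks in both lists, the SD between replicates was 1.03 and 0.38. This band was chosen after the data were seen. A pair can hold the shoulder of a broader replicate peak, so the ratio was also taken from the strongest overlapping entry of each replicate's own ranked list. That gave 167 of 495 members at least 2-fold apart (33.7%, 29.7 to 38.0) and 86 of 1674 peaks in both lists (5.14%). Another 34 members overlapped an entry of replicate 1 alone and 19 of replicate 2 alone.

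**Figure D2:**
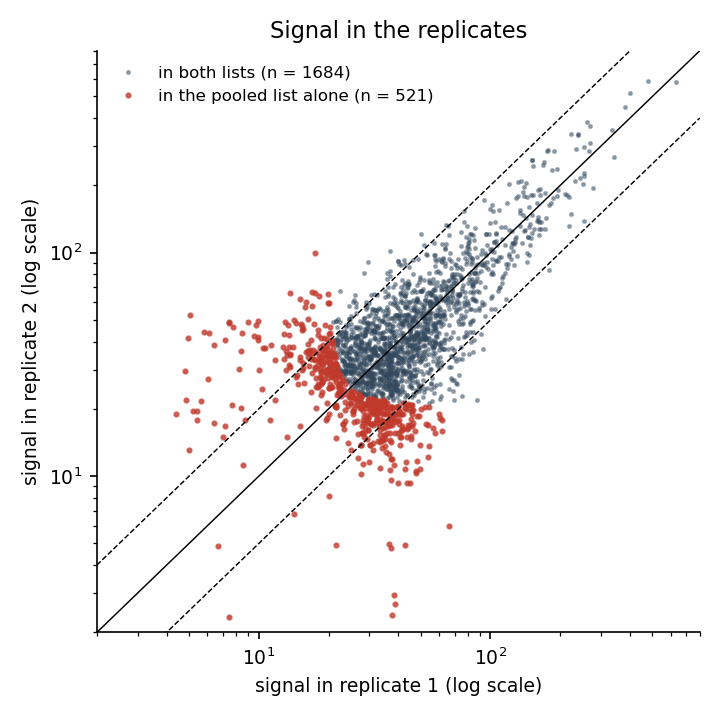
Signal in replicate 1 (horizontal, log axis) and replicate 2 (vertical, log axis) for 521 members (red) and 1684 peaks in both lists (grey); the solid line marks equal signal and the dashed lines a 2-fold difference. In each member the lower replicate is at 24.0 or below, and 224 of them fall outside the dashed lines.

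**Figure D3:**
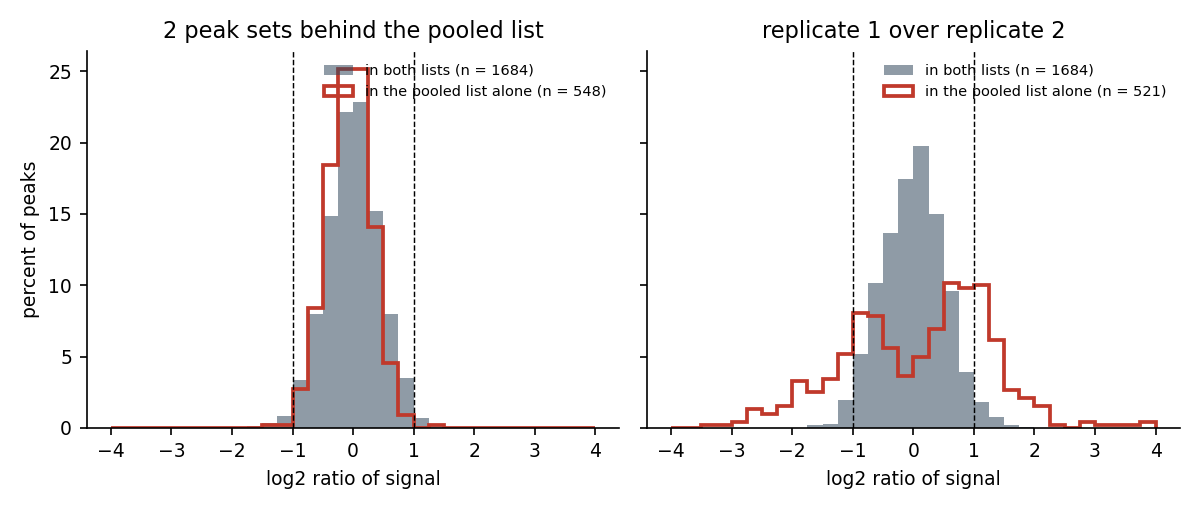
Percent of peaks by log2 ratio of signal, between the 2 peak sets behind the pooled list (left) and between replicate 1 and replicate 2 (right), for members (red line) and peaks in both lists (grey bars); dashed lines mark a 2-fold difference. The left distributions nearly coincide (SD 0.37 and 0.44) and the right ones differ in width (SD 1.20 and 0.52), with members on both sides of 0. For members both widths follow from the rule.

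The replicates' own thresholded lists rarely held a member in both. Of the 548 members, 7 overlapped a peak of both lists by at least 1 bp, 120 of the list of replicate 1 alone, 83 of that of replicate 2 alone and 338 (61.7%, 57.5 to 65.7) of neither. Of the peaks in both combined lists, 760 of 1684 overlapped both replicate lists and 353 (21.0%) neither. Overlap with neither does not mean that a replicate lacked the region, since 529 members overlapped a ranked entry of replicate 1 and 514 one of replicate 2. Within the signal band the order turned, with 73.7% of members and 82.6% of peaks in both lists in neither replicate list (difference -8.92 percentage points). The rule rests on how the same replicates rank each peak, so these overlaps are not independent of it and are given as a description.

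The 20 strongest members that overlap no conservative peak fall into 2 equal groups, 10 in the thresholded list of replicate 1 alone and 10 in that of replicate 2 alone. The 3 strongest had no overlapping entry of replicate 2 even in its ranked list. They were CG7668 (signal 138, 93.1 in replicate 1), CG5096 and gny (105, 68.9 in replicate 1) and subdued (105, 71.6 in replicate 1). A summit in a 3′ UTR on arm 4 lay in the bodies of both Cals and sv, the Pax family gene shaven. It had 82.7 (30.7 in replicate 1) and no entry of replicate 2 either. In the pooled list these 4 had signals of at least 34.2 in each of the 2 sets. Each of the other 16 was at least 2-fold apart between the paired entries of the replicates, although at Raf the strongest overlapping entries had 42.6 and 30.8.

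The 10 in the list of replicate 2 alone were 9 promoter summits and 1 intronic summit. Mcm2, a subunit of the replicative DNA helicase, had a signal of 84.2, with 19.8 in replicate 1 and 65.1 in replicate 2. MESK2 had 94.6, with 17 and 66.6. RpL8, a protein of the large ribosomal subunit, had 72.8, with 19.9 and 59.4. The others were Src64B, a Src family kinase gene with an intronic summit (83.2), stwl, a gene for a DNA-binding protein of the germline (83.1), mlt, whose summit also lies in the potassium channel gene KCNQ (79.0), CG3337 (75.4), Datp (74.0), CG8152 (72.8) and CG11858 (72.3).

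The other 6 were in the list of replicate 1 alone. RpL3, another large subunit protein, had a promoter signal of 75, with 52.0 in replicate 1 and 20.4 in replicate 2. Ance, a homologue of angiotensin-converting enzyme, had 78.9, with 60.5 and 18.2. An intron of Raf, the kinase that acts below Ras, had 72.7, with 42.6 and 4.90, although the strongest overlapping entry of replicate 2 reached 30.8. The others were CG5335, whose summit lies in the autophagy gene Atg7 (79.6), an intron of Pdcd4 with the start of Grip91 nearest (78.9), and the NAD kinase gene Nadk1a (73.9). Over all 20, 15 summits lay in promoters, 4 in introns and 1 in a 3′ UTR. The 27 members with signal over 70 were all at least 2-fold apart between the paired entries of the replicates or seen in 1 of them.

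Some members were not separate sites. The 548 rested on 505 distinct pairs of peaks of the 2 pooled sets, and 60 shared their pair with a stronger pooled peak. This held for 38 of the 38 members with signal under 10 and for 0 of those of 40 or more. Near edl, a gene chosen after its values were seen, an intronic member of signal 55.8 (2R 18668637-18668946) had a neighbour of 6.98 (2R 18668840-18669149) with the same replicate values, 32.5 and 19.5. Only 18 members overlapped a conservative peak. The strongest of these were at sds22, a regulator of protein phosphatase type 1 (61.8, beside a conservative peak of 89.5), row (19.7, beside 104), Trmt61, a tRNA methyltransferase gene (19, beside 75.3), Wwox (18.1, beside 57.1) and NimC3 (16.8, beside 69.5), each with summits 199 to 215 bp apart. The summits of 523 members were over 500 bp from every conservative summit, and 299 lay over 10 kb away. Merging overlapping members left 505 regions.

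At the highest ratios between replicates, the paired entry of the lower replicate was weaker than another entry of the same replicate at that place. CG14767 (37.5 in replicate 1 and 2.40 in replicate 2), Naus (38.6 and 2.69) and an intron of dom, a chromatin remodeller gene (38.5 and 2.95), had the highest ratios of replicate 1 to replicate 2, of 15.7, 14.4 and 13. The strongest overlapping ranked entries of replicate 2 there had 18, 25.5 and 28.6. In the other direction the start of CG46385 in the body of cn (5.04 and 52.7), Vps50 (4.93 and 41.7) and an intergenic summit near Srp54k (5.79 and 44.0) had the highest ratios. The strongest overlapping entries of replicate 1 there had 43.7, 21.8 and 44.8. These 3 overlapped conservative peaks of 95.8, 61.4 and 85.0.

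Where the members lie in the genome was compared next. A promoter was taken as within 500 bp of a transcript start, and other summits were classed by the annotation of Ensembl release 115. Promoters held 316 members (57.7%, 53.5 to 61.7) and 1057 peaks in both lists (62.8%, 60.4 to 65.0), a difference of -5.10 percentage points (Newcombe 95% interval -9.86 to -0.411). Introns held 126 members (23.0%) and 26.2% of the peaks in both lists, and intergenic DNA 54 (9.85%) and 8.25%, with intervals of the difference that include 0. Coding exons held 35 members (6.39%, 4.63 to 8.75) and 15 peaks in both lists (0.891%), a difference of 5.50 points (3.65 to 7.89). The 3′ UTRs held 8 members, 5′ UTRs 4 and other exons 5. Among the 125611 ranked entries on the arms that were not in the pooled list, 15.9% lay in promoters and 20.3% in coding exons, so the members lie between those entries and the peaks in both lists in each of these classes. Peaks in the conservative list alone had 55.9% of summits in promoters, 29.7% in introns and 1.03% in coding exons. Intervals cover counting error only, and peaks are not replicates.

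These differences were not the same within the signal band, and the part of signal in them was not tested. Peaks in both lists within the signal band had 47.9% of summits in promoters and members 58%, so the difference turned to +10.1 points (0.077 to 19.9). Coding exons held 7.30% of members and 5.56% of peaks in both lists in the band (difference 1.74 points, -3.88 to 6.34). Introns held 23.0% and 34.7%, a difference of -11.7 points (-21.0 to -2.70). In the band the members had a median signal of 51 and the peaks in both lists one of 53.6. Among members found in the list of replicate 2 the promoter share was 71.1% and the coding exon share 2.22%, and among those in the list of replicate 1 they were 63% and 1.57%.

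**Figure D4:**
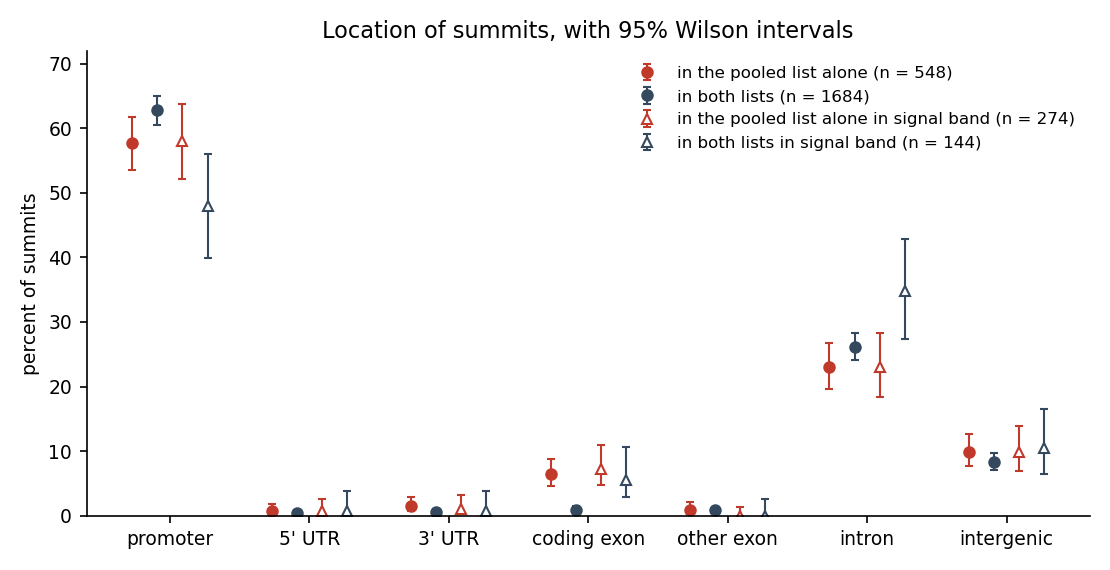
Percent of summits in each location class for the 548 members and 1684 peaks in both lists (filled circles) and for those with signal between 46.3 and 56.7 (open triangles); bars are 95% Wilson intervals. Coding exons hold 6.39% of members and 0.891% of peaks in both lists, and in the signal band the promoter share of peaks in both lists is 47.9%.

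The coding exon members were rich in G and C. Their signal had a median of 48.3 and a maximum of 64.0 at Mpcp2 (42.9 in replicate 1, with no entry of replicate 2). Of the 34 with both replicate values, the log2 ratio was centred on a median of -0.25, with SD 0.84. The G and C content had a median of 58.4%, and 60.4% at the 15 coding exon peaks in both lists. The strongest after Mpcp2, named after their values were seen, were Cyp9f2, a cytochrome P450 gene (62.5), and a summit shared by Bet3 and Nf-YA (55.2).

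Within 500 bp of a protein-coding start lay 300 members, of which 216 (72%, 66.7 to 76.8) were upstream, against 836 of 1006 (83.1%) for peaks in both lists, a difference of -11.1 points (-16.9 to -5.74). Their median position was -63 bp, against -98 bp. In the signal band the upstream shares were 70.9% and 72.6%, with an interval of the difference from -14.0 to 12.2 points. Far from any protein-coding start, by more than 1 kb, were 205 members (37.4%) and 30.3% of peaks in both lists. In the signal band the order turned, with 38.3% and 41.7%, and the interval of that difference (-13.2 to 6.37 points) includes 0. Peaks in the conservative list alone were close to the members, with 71.8% upstream, a median position of -60 bp and 36.9% over 1 kb away.

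**Figure D5:**
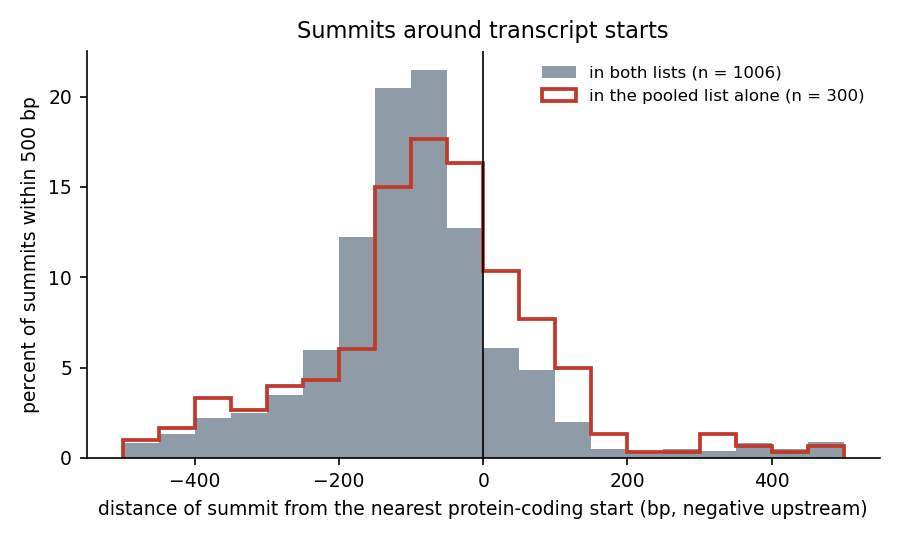
Percent of the summits near a protein-coding start (at most 500 bp away), by distance from it in 50 bp bins (negative values are upstream), for 300 members (red line) and 1006 peaks in both lists (grey bars). The median lies at -63 bp for members and -98 bp for peaks in both lists, and 72% and 83.1% are upstream.

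The arms contributed members at different rates. The share of members among pooled peaks was 26.7% on 2L, 26.4% on 3L, 25.8% on 2R, 24.1% on 3R and, lowest of these, 18.5% on X. The X held 71 members (13%, 10.4 to 16) and 313 peaks in both lists (18.6%), a difference of -5.63 points (-8.83 to -2.08). In the signal band the difference was -3.86 points, with an interval of -11.7 to 3.14. The small arm 4 held 3 members and 1 peak in both lists. Annotated transposable elements held 1 member.

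Summits of members were less rich in A and T than those of peaks in both lists. The median G and C content of the summit windows was 40.6% against 32.7%, with flanking windows 500 bp away at 42.6% and 44.1%. Over 50% G and C was reached at 146 members (26.6%, 23.1 to 30.5) and at 170 peaks in both lists (10.1%), a difference of 16.5 points (12.7 to 20.6). Within the signal band these shares were 28.5% and 25%, with an interval of the difference from -5.69 to 11.9 points. Peaks in the conservative list alone were close to the members, with a median of 40.6% and a share over 50% of 23.1%. Promoter members had a median of 41.6%, intronic ones 37.6% and coding exon ones 58.4%.

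Each of 13 short words was counted on both strands of these windows, among them words that earlier results of these peaks had pointed to. A word picked for its frequency in the pooled peaks can favour the peaks in both lists, which are most of them. The differences below are therefore descriptions. ATTTTA stood at 105 members (19.2%, 16.1 to 22.7), 32.5% of peaks in both lists, 13% of the members' flanks and 15.5% of all tiles of the same length on the arms. The difference between members and peaks in both lists was -13.3 points (-17.1 to -9.19) and in the signal band -9.64 points (-18.3 to -1.60). Among peaks in the conservative list alone the share with ATTTTA was 23.1%. TATAAA, the letters of the TATA box, stood at 16.2% of members and 22.4% of peaks in both lists, and AAAAAA at 20.6% and 26.3%. GAGAG, part of the element bound by GAGA factor, stood at 13% and 9.62%, and CAGCTG, a form of the E-box, at 6.57% and 3.74%. In the signal band the intervals of these last 4 differences include 0. The repeat GCAGCAGC stood at 11 members (2.01%), 2.01% of their flanks and 0.653% of peaks in both lists, a difference of 1.35 points (0.333 to 2.93) whose interval in the band also includes 0. The words CAGGTA, GGTCACAC, CACACACA and TTCGAATC each stood at under 2% of members, and the intervals of their differences include 0.

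Words of the DNA replication-related element occurred at members about as often as at peaks in both lists. This element, TATCGATA, is bound by DREF at promoters of replication and growth genes. It stood at 14 members (2.55%, 1.53 to 4.24), 2.91% of peaks in both lists and 0.277% of tiles, and all 14 were promoter summits. TATCGA, which is contained in it, stood at 42 members (7.66%), 9.68% of peaks in both lists and 3.73% of tiles. The difference was -2.02 points, with an interval of -4.47 to 0.843. Among members in the list of replicate 2 the TATCGA share was 16.7%, and among those in the list of replicate 1 it was 7.87%. CGATAG, which overlaps the element, stood at 40 members (7.30%) and 6.89% of peaks in both lists.

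Split by the ratio of the paired entries, members higher in replicate 1 and members higher in replicate 2 held different shares of some words and of G and C. CGATAG stood at 3 of the 125 members at least 2-fold higher in replicate 1 (2.40%) and at 15 of the 99 at least 2-fold higher in replicate 2 (15.2%), a difference of -12.8 points (-21.3 to -5.50). TATAAA stood at 24.8% and 10.1% (14.7 points, 4.61 to 24.1), AAAAAA at 27.2% and 15.2% (12 points, 1.13 to 22.2), and windows over 50% G and C made up 15.2% and 29.3% (-14.1 points, -25.0 to -3.21). The promoter shares were 60.8% and 65.7%, with an interval of the difference from -17.1 to 7.85 points. These are splits of peaks by their measured ratio, with 13 words compared and no adjustment, and the part of base composition in the ratio was not tested. The rule used the same replicate values, and each side of the split rests on the library of a single replicate. The ratio was that of the paired entries, which can hold a shoulder. From the strongest overlapping entries 106 and 61 members were at least 2-fold higher in replicate 1 and replicate 2. The shares above were not recounted for those members. Conservative peaks overlapped 4 of the 125 and 12 of the 99.

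The genes at members were counted next. Member summits fell inside, or at most 2 kb outside, 812 of 13968 protein-coding genes (5.81%), which are counted as having a member. Peaks in both lists gave 2635 such genes (18.9%), and 549 of the 812 had none of those. Counted by the nearest start there were 474 genes. From members in the list of replicate 2 alone or with replicate 1 there were 168 genes, and from those in the list of replicate 1 there were 210. The count over all genes serves as the background for each list below, and no list was tested. Counts were not scaled by gene length.

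Genes of neuroblasts, neurons and glia were counted first, against the share of 5.81% over all genes. Of 10 genes of the temporal series, cas was the 1 with a member. Of 20 neuroblast and asymmetric division genes, brat, a translational repressor, had a promoter summit 58 bp inside its start (58.8, with 17.1 in replicate 1 and 36.6 in replicate 2) beside a stronger peak in both lists (206). Of 21 neuronal identity genes, the homeodomain gene hth had an intronic member (59.0, with 37.6 and 19.9) and no peak in both lists. Of 20 neuronal function genes and 12 glial genes, 0 had a member, while 2 and 4 had a peak in both lists.

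The member at cas lay at 3R 5716278-5716587, within the gene (FBgn0004878, 3R 5712975-5716805, minus strand). Its summit was 372 bp downstream of the start and fell in a coding exon when promoters were limited to 200 bp. It had a signal of 50.8 in the pooled list. Its signals in the 2 sets behind that list were 25.6 and 22.2, and those in the replicates were 30.9 and 20.4, on scales that are not matched between lists. Its -log10 IDR was 2.04 in the pooled ranking and 1.71 in the conservative one. The nearest conservative summit was 15134 bp away. The replicates thus differed less than 2-fold, and neither replicate's thresholded list held the region.

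Signalling, patterning and tissue genes followed, with 2 or 3 genes per list, against the share of 5.81% over all genes. In the Notch pathway 3 of 16 had a member. They were neur, a ubiquitin ligase that acts on the ligand Delta (53.9, with 35.5 in replicate 1 and 20.4 in replicate 2), the receptor N (51.5, with 7.75 and 46.6) and an intron of the coactivator mam (44.9, with 21.3 and 20.5). All 3 also had a peak in both lists. Among 27 segmentation and Hox genes, the pair-rule gene hry (57.1) and an intron nearest to the start of the Hox gene lab (44.5) had a member, and neither had a peak in both lists. Among 14 ecdysone response genes, the nuclear receptor genes Eip75B (65.1) and EcR (64.6) had members, and in each the strongest was higher in replicate 1, with 54.0 against 12.2 and 45.5 against 19.6. Among 16 mesoderm and muscle genes, the transcription factor gene Mef2 (67.3) and the RNA-binding protein gene how (62.9) had members. Eip75B and Mef2 also had a peak in both lists (63.3 and 272 at the strongest), while EcR and how had none.

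Chromatin and cell cycle genes had members at 5 of 26 (19.2%) and 5 of 22 (22.7%), against 5.81% of all genes. They had peaks in both lists at 14 of 26 (53.8%) and 9 of 22 (40.9%), against 18.9% of all genes. The strongest in the chromatin list were counted for Trl, the GAGA factor gene, with the start of Mgat4a nearest (68.6), Psc, a Polycomb protein gene (62.3), and pzg, with the start of CG12974 nearest (62.1). Psc and pzg had no peak in both lists, and Trl had one of 464. In the cell cycle list the strongest were Cdk4, through the promoter of RpLP2 (60.5), E2f2, through the promoter of Mpp6 (57.2), and the mitotic kinase gene polo (54.4). Cdk4 and E2f2 were counted because the summit lay inside the gene or at most 2 kb outside it, with the start of RpLP2 or Mpp6 nearest. Which gene such a peak belongs to was not tested. Cdk4 also had a peak in both lists (67.5 at the strongest), and E2f2 and polo had none.

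Ribosomal protein genes had members at 13 of 92 (14.1%) and peaks in both lists at 47 of 92 (51.1%), against 5.81% and 18.9% of all genes. RpL3 (75) and RpL8 (72.8), described above, and RpLP2, a stalk protein gene (60.5, with 37.6 in replicate 1 and 18.8 in replicate 2), were the strongest, and 6 of the 13 had no peak in both lists. RpL3 and RpL8 did have one (261 and 67.4 at the strongest), and RpLP2 did not. Mitochondrial ribosomal protein genes had members at 5 of 73, led by mRpS26 (55.9), mRpL12 (52.9) and mRpL50 (51.4), each with another gene's start nearest, and aminoacyl-tRNA synthetase genes at 4 of 32. GlnRS (72.3, through CG11858), GlyRS (65.7, through Ctps) and ArgRS (57.8, through CG8578) were the strongest of the latter. None of the 9 genes with a member in these last 2 lists had a peak in both lists, as for 549 of the 812 over all genes. Other genes of these 2 lists did, 22 of 73 mitochondrial ribosomal protein genes and 7 of 32 synthetase genes, against 18.9% of all genes. Proteasome genes had members at 2 of 48, Rpn5 (54.0, with the start of Hat1 nearest) and Rpn13 (47.6). Both also had a peak in both lists (243 and 58.1 at the strongest).

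Of 118 cuticle protein genes 0 had a member, and of 119 odorant and gustatory receptor genes 3 did, against 5.81% of all genes. All 3 had the start of another gene nearest: Gr32a (49.8, near Idua), Gr39b (48.3, near CG8665) and Or85f (6.44, near CG34117). Or85f also had a peak in both lists (137), and its member is among those under 10, which all shared their pair with a stronger pooled peak. Of 115 histone genes, the variant gene His2Av had members, the strongest at the promoter of ball (49.8).

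A few genes held several members. The highest number was 5, at bun, a gene for a TSC-22 family protein, which had no peak in both lists. They lay at 3 kinds of place: promoters (64.7 and 48.8), introns (53.0 and 53.0) and a coding exon (46.7). The promoter summit of 64.7 was high in replicate 1 (61.7 against 15.9), and the coding exon summit was high in replicate 2 (36.8 against 16.6). Eip75B had 4 members, from 51.3 to 65.1, of which 3 were higher in replicate 1 and 1 in replicate 2. Both genes are named for their counts after these were seen. The counts cover the whole gene body and were not scaled by gene length, so a long gene can gather more members.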

How the data were processed

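Peak lists of castor occupancy in 2 biological replicates of 1 group were used, on assembly dm6. The deposited signal values are the authors' measure of peak height and are not scaled between lists. The deposited score is the authors' scaled IDR, at most 1000, and the ranked lists hold IDR as −log10 values by the authors, ending at 5. Per the deposited README texts, the combined lists derive from the alignments of both replicates. The depth is unknown. Which aligner, caller and settings were used is not given in the sources used here.

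Summits were classed with Ensembl release 115 (BDGP6.54), whose arm lengths equal those of dm6, taking promoters first, then UTRs (5′ before 3′), coding exons, exons of other transcripts, introns and intergenic DNA. Shares have Wilson and differences Newcombe 95% intervals, which cover counting error only. The Wilson interval was checked against that of scipy on random counts. The coverage of the Newcombe interval was tested on simulated data. No p-value was computed, since the members were chosen on the measured values and peaks are not replicates. The 18 gene lists, 13 words and the members were chosen with earlier results of these data known. An older symbol was needed to match 3 listed genes.

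Named genes followed a rule: those of the 20 strongest members that overlap no conservative peak and of the 5 strongest that do, up to 3 per list, cas, those at the threshold and the 3 highest replicate ratios each way. Genes outside it are said to be so. Alternatives were other windows, overlap rules, signal limits, gene assignments and the list of each replicate. The signal band and the ratio from strongest overlapping entries were added after the data were seen. Python 3.11.15, numpy 2.4.6, pandas 2.3.3, scipy 1.17.1 and matplotlib 3.10.9 were used.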

Additional observations from a re-analysis of the deposited data

How the results depend on the processing

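Of 65 alternative values, 35 stayed within the limits of the value reported. The number of members was 530 under the rule of no overlap and 523 under that of distant summits, against 548. Promoter windows of 200 and 1000 bp gave promoter shares of 45.3% and 65.9%, and intron shares of 28.5% and 19%. The 200 bp window gave an intergenic share of 14.4%, the 1000 bp window a coding exon share of 4.38%, and the stronger 50% of members a coding exon share of 1.82%. A 51 bp window gave a median G and C content of 43.1%, ATTTTA at 9.49% and TATCGA at 4.01%; shorter windows hold fewer words by construction. Nearest starts gave 474 genes. The strongest overlapping entries gave 33.7% of members with replicates at least 2-fold apart.

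Keeping the members found in the list of 1 replicate, which leaves fewer peaks by construction, gave promoter shares of 63% to 71.1%, coding exon shares of 1.57% to 2.22%, intron shares of 15.6% to 24.4% and median signals of 56.3 to 56.9. It gave median G and C contents of 35.6% to 41.1%, ATTTTA at 22.2% to 27.6%, TATCGA at 7.87% to 16.7% and 168 to 210 genes.

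The signal band was added after the data were seen. In it the difference of promoters from peaks in both lists reversed to 10.1 points, with an interval that leaves out 0. The difference of peaks in neither replicate list reversed to -8.92 points, which is not independent of the rule. Those of summits over 1 kb from a start (-3.35), of intergenic summits (-0.56) and of TATCGA (1.49) also turned, with intervals that include 0. The differences of coding exons (1.74), of summits over 50% G and C (3.47) and of the X (-3.86) had intervals that include 0, and that of introns (-11.7) no longer did. The causes were not tested. No paired analysis was possible because there is 1 group. Depth, input and the make-up of the 2 pooled sets are unknown, so signal cannot be set against counting error.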
